A study of Mus musculus with 7 samples.

Results

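The 10 apolipoprotein genes Apoa1, Apoa2, Apoa4, Apoa5, Apob, Apoc1, Apoc3, Apoe, Apoh and Apom were examined for chromatin accessibility in young and aged mouse liver. Each accessible region that touched the body of one of these genes, or the 10 kb on either side of it, was assigned to the gene, and a region close to several of them went to the gene with the nearest TSS. This selected 50 of the 55680 regions in the table: 14 at Apob, 10 at Apoh, 5 at Apoa5, 4 each at Apoa2, Apoc1 and Apom, 3 each at Apoa4 and Apoe, 2 at Apoa1 and 1 at Apoc3. Accessibility was measured by ATAC-seq (Omni-ATAC), in which a transposase inserts sequencing adapters into exposed DNA, on nuclei isolated from the liver of male C57BL/6N mice. The young group had 3 samples from mice aged 3 months and the aged group 4 samples from mice aged 18 months. The labels name no treatment and no genetic change. The deposited design names 3 old animals, of which 1 gave 2 lobules that were used as separate replicates, without saying which of the aged samples these are, whereas the paper speaks of biological replicates for all of them. The p-values therefore treat as independent at least 2 aged samples that may share an animal.

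Apolipoproteins are the protein part of the lipoprotein particles that carry cholesterol and triglycerides in blood, and the liver is the main source of most of them. Apob is the structural protein of very low density and low density lipoproteins, Apoa1 and Apoa2 are the main proteins of high density lipoproteins, and Apoe directs particles to hepatic receptors. Apoc3 and Apoc1 slow the clearance of triglyceride-rich particles, while Apoa5 promotes triglyceride hydrolysis by lipoprotein lipase. Several of these genes lie in clusters, one with Apoa1, Apoc3, Apoa4 and Apoa5 and another with Apoe and the Apoc genes, and nuclear receptors, HNF factors, C/EBP and FOXA proteins control many of them in hepatocytes.

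The read counts in regions summed to between 4474652 and 25461110 per library, and the 50 regions together took between 0.220% and 0.268% of them. Levels are given as CPM (counts scaled to TMM-normalized library size) or as CPM per kb of region where regions are compared with each other. All 4 hepatocyte markers read (Alb, Ttr, Fga and Cps1) had an accessible promoter region, against 1 of 6 for Kupffer cells and macrophages, 3 of 5 each for endothelium, stellate cells and cholangiocytes and 0 of 5 for lymphocytes. The summed level of the hepatocyte promoters was 171 to 213 CPM in young and 243 to 272 CPM in aged samples, and that of the stellate cell promoters was 26.6 to 29.1 CPM in young and 16.1 to 23.5 CPM in aged samples, so neither sum overlapped between the ages. The endothelial list (59.4 to 65.4 CPM in young, 48.4 to 80.7 CPM in aged), the cholangiocyte list (43.8 to 52.0 and 39.4 to 56.9 CPM) and Clec4f, the only macrophage marker with a region (2.22 to 2.65 and 0.588 to 2.80 CPM), did overlap. Taken singly, 1 of the 4 hepatocyte promoters (Fga) had every aged sample above every young one, and Reln and Col1a1 of the stellate cell list and Epcam of the cholangiocyte list, whose sum is mostly Sox9, had every aged sample below, where 20.4% and 8.88% of all promoter regions did so. Their part in the results at the apolipoprotein genes was not tested. In bulk tissue, fewer cells of a type cannot be told apart from less accessible chromatin in each cell.

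The stretches upstream of Apoa1, Apoa5 and Apoh are shown because regions over them became more accessible, and that of Apob because the region over it did not pass the test. Each holds the bases from 250 to 51 before the RefSeq start (GRCm38.p6) on the coding strand, and capitals mark matches to a list of 9 short motifs on either strand, none of which overlapped another here. RefSeq promoters were found for 8 of the 10 genes, not for Apoc1 and Apoc3. RefSeq gives Apoa5 starts at 46268608 and 46268633, and the stretch before the latter, which is also where the annotated gene begins, is shown.
Apoa1 (chr9:46228380-46228579, plus strand): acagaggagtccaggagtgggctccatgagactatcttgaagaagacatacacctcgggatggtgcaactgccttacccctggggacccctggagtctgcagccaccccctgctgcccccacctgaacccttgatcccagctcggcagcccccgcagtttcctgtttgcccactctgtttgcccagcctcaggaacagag
Apoa5 (chr9:46268383-46268582, plus strand): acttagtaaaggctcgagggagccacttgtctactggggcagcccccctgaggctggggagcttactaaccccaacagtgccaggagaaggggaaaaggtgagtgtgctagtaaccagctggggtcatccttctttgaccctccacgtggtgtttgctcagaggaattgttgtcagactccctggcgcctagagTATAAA
Apoh (chr11:108395047-108395246, plus strand): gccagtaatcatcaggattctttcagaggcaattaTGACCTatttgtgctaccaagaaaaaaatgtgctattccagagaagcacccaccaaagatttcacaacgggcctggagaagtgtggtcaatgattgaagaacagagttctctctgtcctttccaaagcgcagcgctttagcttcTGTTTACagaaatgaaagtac
Apob (chr12:7977427-7977626, plus strand): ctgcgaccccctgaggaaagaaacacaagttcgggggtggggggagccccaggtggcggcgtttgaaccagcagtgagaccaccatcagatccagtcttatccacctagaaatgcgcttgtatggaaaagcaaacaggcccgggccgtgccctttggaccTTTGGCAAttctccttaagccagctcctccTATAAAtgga
The Apoa1 stretch held none of the 9 motifs. The TATA box letters TATAAA stood at positions -56 to -51 in Apoa5 and -60 to -55 in Apob, and 9.14% of all 32851 RefSeq promoters had them in the same window. The window before the other Apoa5 start ends ahead of this match and held 0 motifs. Apoh had the FOXA motif TGTTTAC at -71 to -65 (in 2.58% of promoters) and the reverse complement of the nuclear receptor half-site AGGTCA at -215 to -210 (in 11.4%). Apob had the C/EBP motif TTGCNNAA in reverse complement at -90 to -83 (in 8.11%). The other motifs searched were not found in these 4 stretches: HNF4 (CAAAGTCCA, in 0.295% of promoters), the HNF1 half-site (GTTAAT, 5.33%), the CCAAT box (CCAAT, 28.4%), the GC box (GGGCGG, 24.6%) and the SREBP motif (TCACNCCAC, 0.81%). The match to FOXA in Apoh was shared with Apoa2, which has 2 RefSeq starts and held TGTTTAC at -77 to -71 before the one at 171225054 and not before the other.

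Across the 50 regions, 6 were more accessible in aged liver and 0 were less accessible (edgeR quasi-likelihood test, Benjamini-Hochberg adjustment over all regions, threshold 0.05). The background was 2.44% of all regions called more accessible and 3.30% called less accessible. Of the 6 regions, 5 lay in the Apoa1, Apoc3, Apoa4 and Apoa5 cluster and 1 was a promoter of Apoh. Their log2 fold changes (aged over young) were close to each other, between 0.49 and 0.61. DESeq2 called 9 of the 50 regions more and 0 less accessible, limma voom 6 and 1, and at an unadjusted p under 0.05 in edgeR 12 were higher and 3 lower. Over all regions DESeq2 called 4.96% more and 3.47% less accessible, limma voom 3.95% and 4.28%, and the unadjusted p passed for 11.9% higher and 12.7% lower. The 50 log2 fold changes had a median of 0.00, with 27 above 0, beside a median of -0.04 over all regions. In 12 of the 50 regions every aged sample lay above every young one, and in 2 every aged sample lay below, where 10.2% and 11.6% of all regions did so.

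The log2 fold changes were split by the position of a region. Of the 12 regions over a TSS of an apolipoprotein gene, 4 were called more accessible and 0 less accessible, 10 had a log2 fold change above 0 and the median was 0.31. Among all 15422 promoter regions in the table, 4.48% were called more and 2.06% less accessible, with a median of 0.09. In 7 of the 12 the aged samples all lay above the young ones, and in 0 all below, where 20.4% and 8.88% of all promoter regions did so. The 28 regions outside promoters had a median of -0.13, with 12 above 0, and 2 of them were called more accessible. All 40258 regions outside promoters had a median of -0.09, with 41.0% above 0, 669 called more and 1521 called less accessible. The remaining 10 regions covered promoters of neighbouring genes, with a median of 0.02 and 0 calls in edgeR, while DESeq2 called 1 of them, which covers the promoter of Zpr1.

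**Figure D1:**
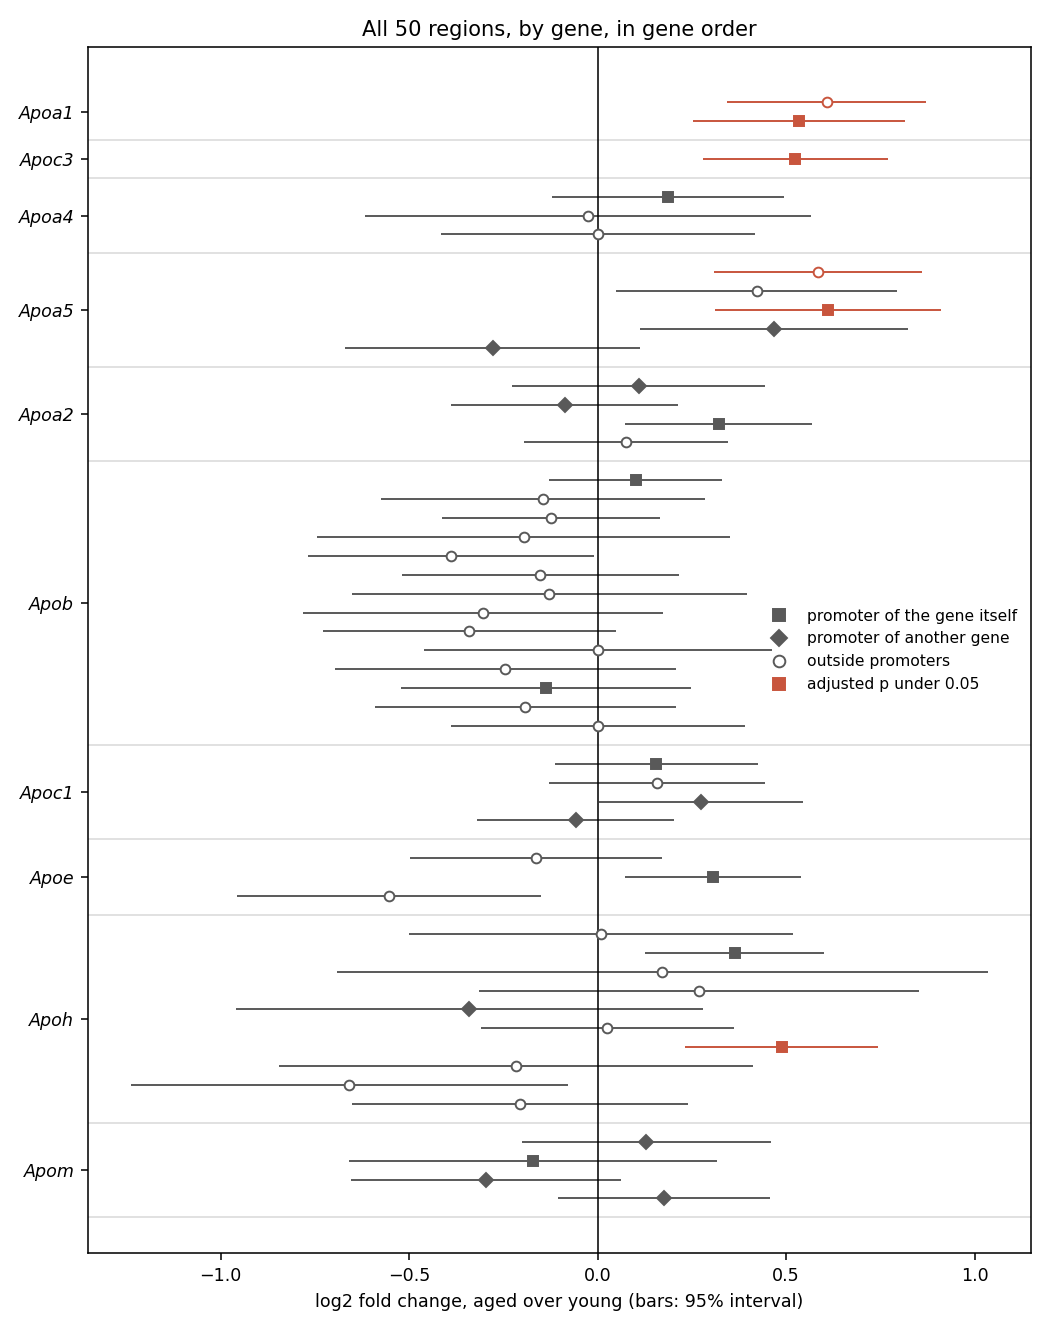
Log2 fold change (x axis, aged over young) of the 50 regions with 95% intervals, grouped by gene and ordered along it, with filled squares for promoters of the gene, filled diamonds for promoters of other genes and open circles for other regions. The 6 regions with an adjusted p under 0.05 (red) lie between 0.49 and 0.61, and 11 of the 14 Apob regions lie below 0.

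The level of a region went along with its fold change over the whole table, and the apolipoprotein regions were among the more accessible ones. In the most accessible 10% of all regions (mean log2 CPM of 5.53 and above) the median log2 fold change was 0.28 and 93.8% of regions were above 0, whereas in the least accessible 10% the median was -0.42. Of the 50 regions, 16 fell in the top 10%, with a median of 0.17, and 4 of these 16 were called more accessible, where 11.7% of all regions at that level were. The other 2 called regions were among the 8 of the 50 in the next 10%, where the median was 0.16 and 5.75% of all regions were called more accessible. When offsets fitted on mean abundance removed this dependence, 0 of the 50 regions passed in either direction, with edgeR adjusted p between 0.110 and 0.770 for the 6 regions, whose log2 fold changes stayed above 0 at 0.08 to 0.42. Few regions passed anywhere with these offsets: 247 of all regions were called more and 414 less accessible. With aged replicates 1 and 3 summed, as if they were the lobules of 1 animal, 1 of the 50 regions passed, with aged replicates 3 and 4 summed 4 did, and with each of the other 4 pairs summed 6 did. Over all regions, 269 were called more accessible with aged replicates 1 and 3 summed and 727 with 3 and 4 summed. The other 4 pairs gave between 699 and 2164, beside 1360 with no samples summed. The count of 6 also rested on single libraries: it fell to 0 when young replicate 1, aged replicate 1 or aged replicate 3 was left out and to 1 when young replicate 2 was, with all 6 log2 fold changes at 0.42 or higher in these fits. Calls over the whole table fell too, from 1360 more accessible regions to 55, 129, 176 and 196 in the same order.

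**Figure D2:**
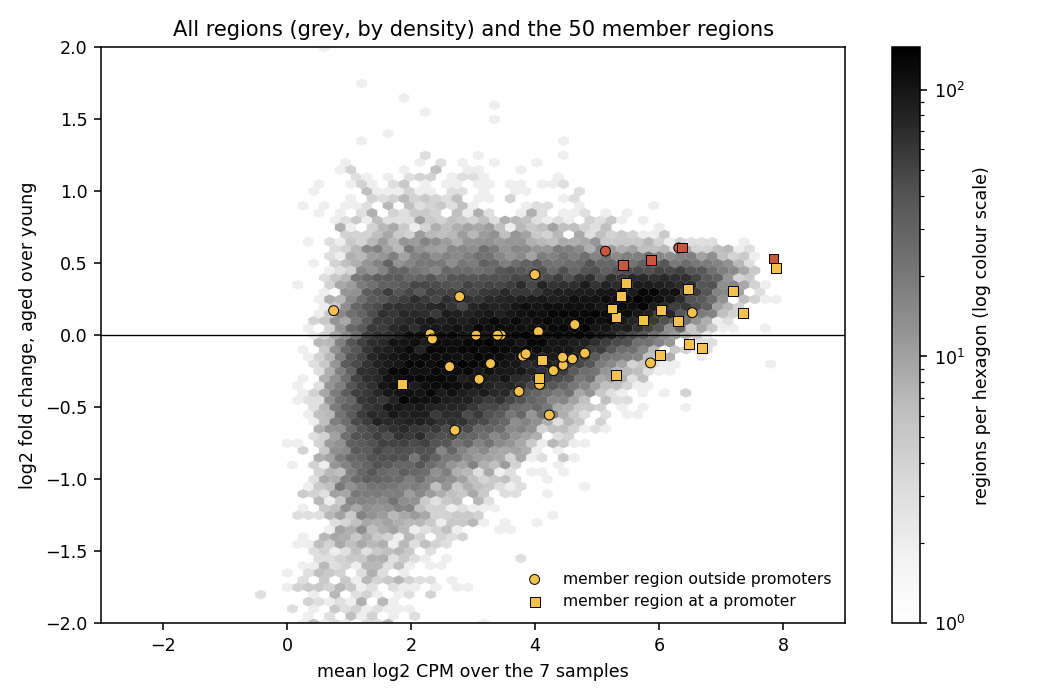
Mean log2 CPM over the 7 samples (x axis) and log2 fold change of aged over young (y axis) for all regions (grey hexagons, darker for more regions; 266 regions beyond 2 in either direction are not drawn) and for the 50 apolipoprotein regions (points; red for an adjusted p under 0.05). The grey cloud rises from left to right, and the red points lie at its upper edge.

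Apoa1, the main protein of high density lipoproteins (chr9:46228580-46230466, plus strand), had 2 regions and both rose. The region at chr9:46228367-46232634 covered the promoter and the entire gene, at 55.02 CPM per kb. It measured 173, 203 and 184 CPM in young and 275, 215, 299.5 and 294 CPM in aged samples. The young samples all lay below the aged ones, with aged replicate 2 the closest, and the log2 fold change was 0.53 (95% interval 0.25 to 0.82, edgeR adjusted p = 0.0331), a 1.45-fold difference. It did not pass with offsets on mean abundance (0.0770, edgeR adjusted p = 0.770), with the replicate block (edgeR adjusted p = 0.0743), with at least 10 counts in every sample, with aged replicates 1 and 3 or 3 and 4 summed, or without any 1 of the young replicates or aged replicate 1 or 3. The region at chr9:46222792-46225919 lay 2661 bp upstream of the Apoa1 TSS, partly in the last exon and 3′ UTR of the neighbouring gene Sik3. It measured 58.5, 67.4 and 62.3 CPM in young and 88.3, 82.8, 101 and 111 CPM in aged samples, again without overlap, and had the smallest adjusted p of the 50 regions, with a log2 fold change of 0.61 (95% interval 0.34 to 0.87, edgeR adjusted p = 0.0173). This region passed with every pair of aged replicates summed, but not with offsets on mean abundance (0.31, edgeR adjusted p = 0.151) or without young replicate 1 or 2 or aged replicate 1 or 3.

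Apoc3, an inhibitor of triglyceride clearance (chr9:46232933-46235636, minus strand), lies tail to tail with Apoa1, at a distance of 2.47 kb between their 3′ ends. Its single region, chr9:46234688-46235917, covered the promoter and the first part of the gene. The values were 44.99, 54.2 and 42.9 CPM in young and 70.02, 63.9, 70.04 and 69.9 CPM in aged samples. The lowest aged sample was replicate 2, above the highest young sample, and the log2 fold change was 0.52 (95% interval 0.28 to 0.77, edgeR adjusted p = 0.0218). It did not pass with offsets on mean abundance (0.28, edgeR adjusted p = 0.198), with aged replicates 1 and 3 summed (edgeR adjusted p = 0.0608) or without young replicate 1 or aged replicate 1 or 3.

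Apoa4, an exchangeable apolipoprotein that the intestine and, in mice, the liver secrete (chr9:46240696-46243459, plus strand), did not pass the test although it lies between called regions. Its promoter region at chr9:46240443-46241932 held 30.9, 30.8 and 44.7 CPM in young and 38.04, 42.4, 37.4 and 41.9 CPM in aged samples, and young replicate 3 was above every aged sample. The log2 fold change was 0.19 (95% interval -0.12 to 0.49, edgeR adjusted p = 0.4495), and it was 0.38 without young replicate 3 (edgeR adjusted p = 0.0873), 0.0892 without young replicate 2 and 0.11 without young replicate 1. Its interval overlaps those of the Apoa1 and Apoc3 promoters. The ratio of reads in the Apoa1 promoter region to reads in the Apoa4 promoter region was 5.599, 6.6 and 4.12 in young and 7.23, 5.06, 8.02 and 7.02 in aged samples. These ratios, chosen after the values were seen, overlapped between the ages in aged replicate 2. The other 2 Apoa4 regions, downstream of the gene, had log2 fold changes of -0.03 and 0.00.

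Apoa5, which promotes hydrolysis of plasma triglycerides (chr9:46268633-46271919, plus strand), starts 40.1 kb from the start of Apoa1. Its promoter region, chr9:46267965-46269331, had 62.4 CPM per kb and the largest log2 fold change of the 50 regions. The counts came to 55.8, 74.8 and 65.4 CPM in young and 103, 93.4, 120.2 and 84.1 CPM in aged samples. All aged samples were above all young ones, and the log2 fold change was 0.61 (95% interval 0.31 to 0.91, edgeR adjusted p = 0.0261), a 1.53-fold difference. An intergenic region 8633 bp upstream of the TSS, chr9:46258745-46260000, rose as well, from 27.9 ± 2.94 CPM (SD, n = 3) in the young to 41.6 ± 4.42 CPM (SD, n = 4) in the aged samples, with a log2 fold change of 0.58 (95% interval 0.31 to 0.86, edgeR adjusted p = 0.0226). Neither Apoa5 region passed with offsets on mean abundance (0.31 at the promoter and 0.42 upstream), with aged replicates 1 and 3 summed or without young replicate 1 or 2 or aged replicate 1 or 3. A shorter region beside it, chr9:46261230-46261618, held 13.98, 15.6 and 10.4 CPM in young and 19.6, 19.4, 16.3 and 17.1 CPM in aged samples. These did not overlap either, yet the log2 fold change of 0.42 (95% interval 0.05 to 0.79, edgeR adjusted p = 0.152) did not pass.

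The 3′ end of Apoa5 shared the most accessible of all 50 regions, chr9:46270719-46273803, with the promoter of Zpr1, which encodes a zinc finger protein. It reached 78.3 CPM per kb and 154, 221 and 219 CPM in young and 259, 233, 358 and 247 CPM in aged samples. Every aged sample was above the young ones, by little for aged replicate 2, and the log2 fold change was 0.47 (95% interval 0.11 to 0.82, edgeR adjusted p = 0.102). At the far side of Zpr1, the promoter region of Bud13 had -0.28 (95% interval -0.67 to 0.11, edgeR adjusted p = 0.369). Of the 11 regions of the cluster, 5 were called, 9 were above 0 and in 7 the ages did not overlap, all with the aged samples higher, where over all regions 2.44% were called more accessible, 46.6% were above 0 and 10.2% had every aged sample higher.

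**Figure D3:**
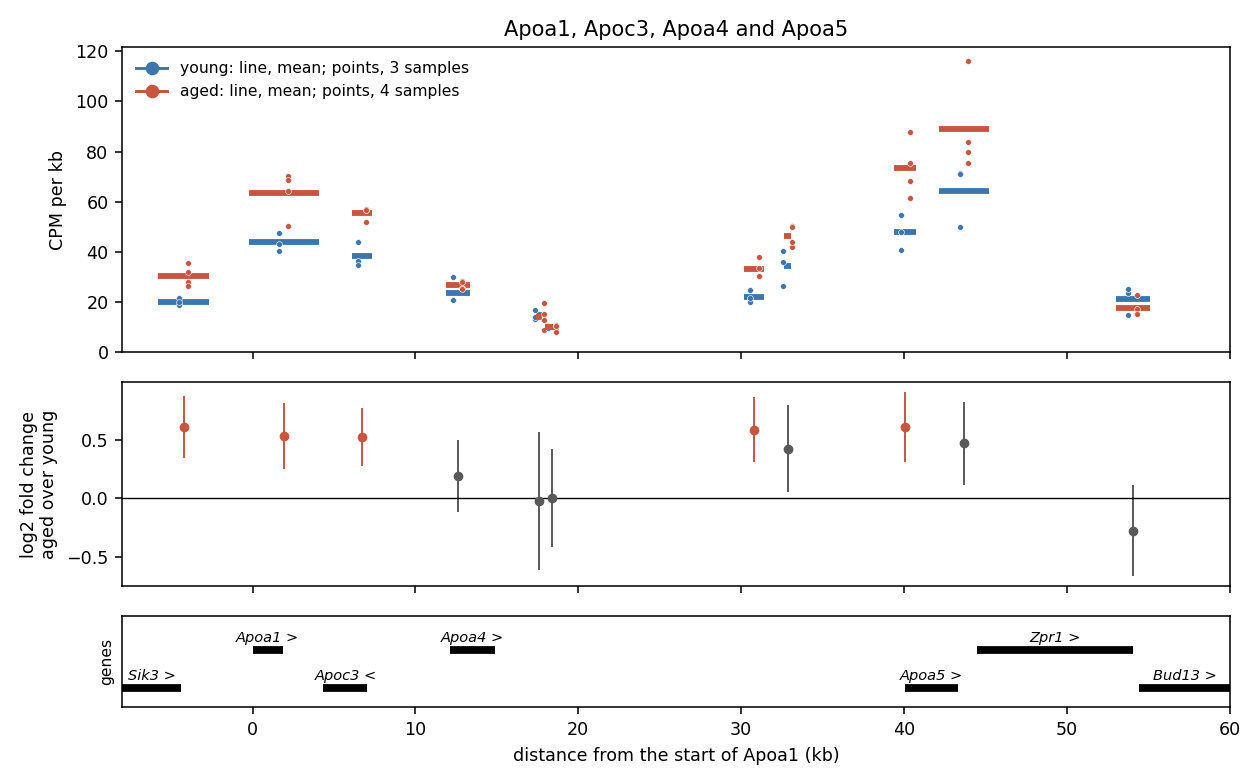
Accessibility (top, CPM per kb) and log2 fold change of aged over young with its 95% interval (middle; red for an adjusted p under 0.05) of the 11 regions at Apoa1, Apoc3, Apoa4 and Apoa5, against the distance from the start of Apoa1 in kb; bars in the top panel span each region at the group mean, and gene bodies are drawn at the bottom with their direction. Called regions stand on both sides of Apoa4, whose 3 regions lie between -0.03 and 0.19.

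Apob, the structural protein of very low density and low density lipoproteins (chr12:7977648-8016835, plus strand), had the most regions and none was called. The region over its first TSS, chr12:7977005-7979419, was measured at 80.99, 76.6 and 69.6 CPM in young and 86.9, 75.1, 80.3 and 82.3 CPM in aged samples. The ages overlapped, and the log2 fold change was 0.10 (95% interval -0.13 to 0.33, edgeR adjusted p = 0.602). Its interval overlaps that of the Apoa1 promoter (0.25 to 0.82), and the difference between them was not tested. With total counts the log2 fold change at Apob was -0.0177 and with offsets on mean abundance -0.19. The other 13 regions included 9 over exons inside the gene, 1 in an intron, 1 over an annotated start of a shorter transcript, 1 just downstream and 1 intergenic. Of these 13, 11 had log2 fold changes below 0 and 2 were just above 0 at 0.00, and their median was -0.15. In 1 of them, over exons at chr12:7988067-7988887, all aged samples were below the young ones, with 16.7, 16.4 and 13.3 CPM in young and 12.7, 9.22, 12.8 and 12.5 CPM in aged samples. The log2 fold change there was -0.39 (95% interval -0.77 to -0.01, edgeR adjusted p = 0.192).

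The densest Apob region was not the promoter but a stretch of 278 bp in intergenic DNA, chr12:8020993-8021270, at 37.2 CPM per kb. It had 10.3, 9.71 and 11.02 CPM in young and 10.7, 10.002, 11.7 and 8.91 CPM in aged samples and a log2 fold change of 0.00. The ratio of reads over the first promoter to reads over the other 13 regions, chosen after the values were seen, was 0.256, 0.263 and 0.206 in young and 0.264, 0.337, 0.25 and 0.3503 in aged samples. The ages overlapped in aged replicate 3.

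**Figure D4:**
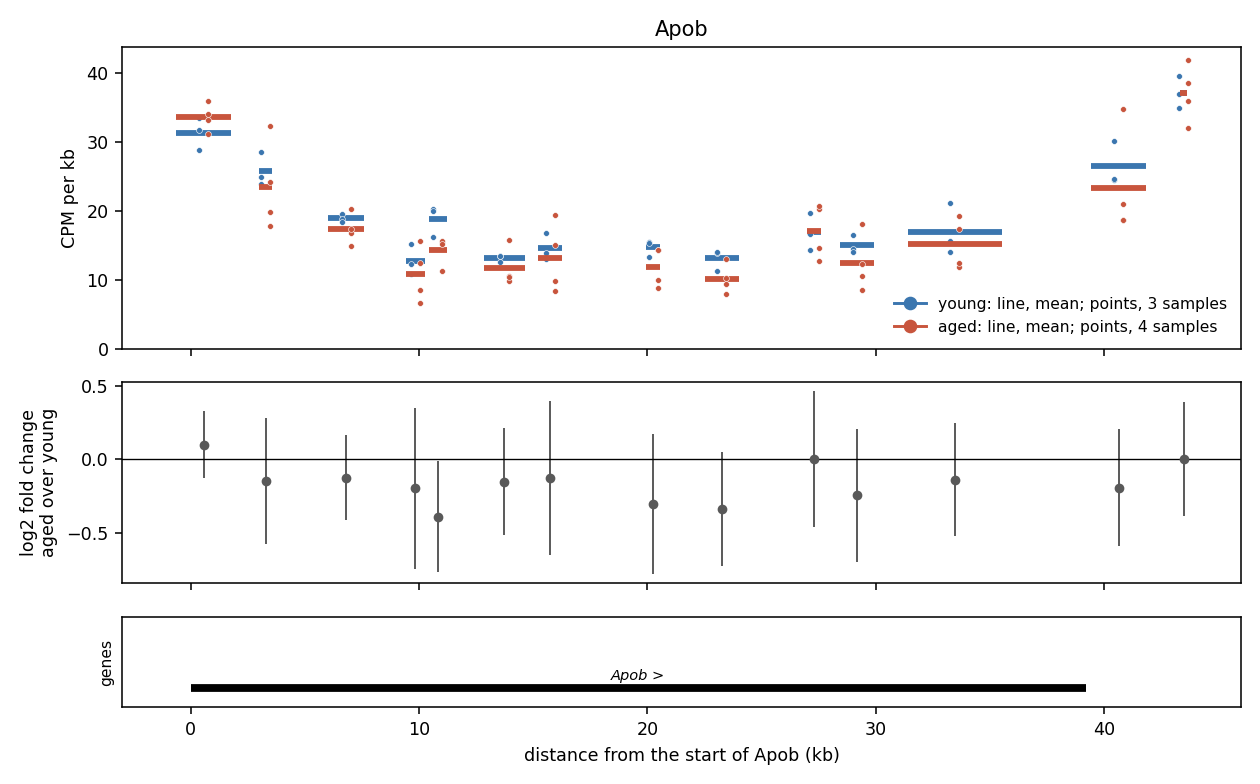
Accessibility (top, CPM per kb; bars span each region at the group mean, points are samples) and log2 fold change of aged over young with its 95% interval (middle) of the 14 regions at Apob, against the distance from its start in kb. The first promoter is at 0.10 and the regions inside the gene lie at or below 0.00.

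Since ratios within a library do not depend on how libraries are scaled against each other, the Apoa1 to Apoa5 cluster was also set against Apob and against the other cluster in that way, again after the values were seen and without a test. The ratio of reads in the 11 regions of the Apoa1 to Apoa5 cluster to reads in the 14 Apob regions was 1.52, 2.06 and 1.79 in young and 2.26, 2.799, 2.74 and 3.02 in aged samples. All aged samples were above all young ones. Against the 7 regions of Apoc1 and Apoe the ratio was 1.01, 1.41 and 1.41 in young and 1.77, 1.28, 1.68 and 1.68 in aged samples, and here aged replicate 2 lay within the young range. Reads in all promoter regions over reads in all other regions also rose, from 1.22, 1.16 and 1.11 in young to 1.34, 1.21, 1.33 and 1.35 in aged samples. Aged replicate 2 again lay within the young range. Of the 14 Apob regions, 2 were promoter regions. The part of this shift in the ratios here, and in those of the Apob and Apoe promoters, was not tested.

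Apoe, the ligand by which remnant particles bind hepatic receptors (chr7:19696109-19699188, minus strand), showed opposite signs at its ends. Its promoter region, chr7:19698471-19701772, which also held the 3′ end of Tomm40, had 138, 137 and 116 CPM in young and 153, 165, 169 and 157 CPM in aged samples. The aged samples were all above the young ones, but the log2 fold change of 0.31 (95% interval 0.07 to 0.54, edgeR adjusted p = 0.105) did not pass. It passed with DESeq2 (0.33, adjusted p = 0.0481) and with offsets on GC content (0.39, edgeR adjusted p = 0.0182), and with offsets on mean abundance it was -0.0644. The region over the last exon and 3′ UTR of Apoe, chr7:19696132-19696873, had 26.7, 21.997 and 21.05 CPM in young and 15.2, 17.5, 20.5 and 11.2 CPM in aged samples. There the aged samples were all below the young ones, with a log2 fold change of -0.55 (95% interval -0.96 to -0.15, edgeR adjusted p = 0.0919), the lowest of the regions whose ages did not overlap. The ratio of reads in the promoter region to reads in the other 2 Apoe regions, chosen after the values were seen, was 2.63, 2.91 and 2.42 in young and 4.34, 3.47, 4.02 and 4.89 in aged samples, without overlap of the ages.

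Apoc1, an exchangeable apolipoprotein that inhibits lipoprotein lipase (chr7:19689481-19692660, minus strand), starts 6.53 kb from Apoe. Its promoter region, chr7:19691397-19696030, was the longest of the 50 at 4634 bp and lay mostly between Apoc1 and Apoe. It had 172, 152 and 137 CPM in young and 148, 186, 192 and 159.9 CPM in aged samples. The ages overlapped, with a log2 fold change of 0.16 (95% interval -0.11 to 0.42, edgeR adjusted p = 0.475), which was -0.23 with offsets on mean abundance. The densest region near Apoc1 was the promoter of Apoc4, another apolipoprotein of the cluster, at chr7:19680760-19681906 and 36.5 CPM per kb. It did not overlap between the ages, at 37.8, 36.9 and 36.996 CPM in young and 39.7, 45.3, 54.6 and 41.6 CPM in aged samples, and its log2 fold change was 0.27 (95% interval 0.00 to 0.54, edgeR adjusted p = 0.196). The promoter region of Apoc2, the activator of lipoprotein lipase, had -0.06 (95% interval -0.32 to 0.20, edgeR adjusted p = 0.808).

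Apoa2, the second protein of high density lipoproteins (chr1:171225054-171226379, plus strand), had a promoter region at chr1:171223339-171225769 with 69.8, 82.6 and 81.6 CPM in young and 88.6, 92.4, 109 and 99.9 CPM in aged samples. All aged samples were above the young ones, and the log2 fold change was 0.32 (95% interval 0.07 to 0.57, edgeR adjusted p = 0.108). It passed with offsets on GC content (0.39, edgeR adjusted p = 0.0335) and was 0.0107 with offsets on mean abundance. The densest region near it, chr1:171220703-171222934 at 46.6 CPM per kb, covered the promoter of Tomm40l and had a log2 fold change of -0.09 (95% interval -0.39 to 0.21, edgeR adjusted p = 0.743). The promoter of Nr1i3, the nuclear receptor CAR, had 0.11 and an intron of Fcer1g had 0.07.

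Apoh, or beta-2-glycoprotein I, a phospholipid-binding plasma protein (chr11:108343354-108414396, plus strand), had accessible regions over annotated starts, with 50.2 kb between the regions. The more upstream one, chr11:108342867-108344409, is shared with the promoter of Prkca on the other strand and is the promoter region by the rule of highest mean level, at 28.7 CPM per kb. It had 38.7, 37.4 and 37.98 CPM in young and 51.2, 47.5, 52.99 and 44.2 CPM in aged samples, without overlap, and a log2 fold change of 0.36 (95% interval 0.13 to 0.60, edgeR adjusted p = 0.0672). It passed with DESeq2 (0.39, adjusted p = 0.0399), with offsets on GC content (0.40, edgeR adjusted p = 0.0423) and without aged replicate 4 (0.42, edgeR adjusted p = 0.0427), and was 0.17 with offsets on mean abundance. The region over the RefSeq start printed above, chr11:108394561-108396728, had 34.7, 36.5 and 33.7 CPM in young and 44.6, 45.5, 56.96 and 50.4 CPM in aged samples. This one rose, with a log2 fold change of 0.49 (95% interval 0.23 to 0.74, edgeR adjusted p = 0.0327), a 1.40-fold difference, and the ages did not overlap. It did not pass with offsets on mean abundance (0.29, edgeR adjusted p = 0.215), with total counts (0.37, edgeR adjusted p = 0.0679), with at least 10 counts in every sample, with aged replicates 1 and 3 or 3 and 4 summed, or without any 1 of the young replicates or aged replicate 1 or 3. The remaining 8 Apoh regions ranged from -0.66 to 0.27, none was called and all overlapped between the ages. The lowest, over exons at chr11:108404355-108406050, had between 3.33 and 9.72 CPM per sample.

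Apom, the carrier of sphingosine-1-phosphate on high density lipoproteins (chr17:35128997-35132050, minus strand), was the 1 gene of the 10 whose promoter region chosen by the rule had a log2 fold change below 0 with TMM normalization, although a second region over a TSS of Apob was also below 0 (-0.14), as was the Apob promoter chosen by the rule with total counts and the Apob, Apoc1 and Apoe promoters with offsets on mean abundance. The region at chr17:35131243-35132450 had 20.8, 15.6 and 20.9 CPM in young and 15.6, 13.7, 11.7 and 25.3 CPM in aged samples. Aged replicate 4 was the highest and aged replicate 3 the lowest of all 7 samples, and the log2 fold change was -0.17 (95% interval -0.66 to 0.32, edgeR adjusted p = 0.687). It ranged from -0.44 without aged replicate 4 to -0.0516 without aged replicate 3 and did not pass in either. It was also the least accessible of the 10 promoters chosen by the rule, at 14.6 CPM per kb, where Apoa5 was the most accessible. The densest region near it, chr17:35120687-35122236 at 42.4 CPM per kb, was the promoter shared by Csnk2b and Gpank1, with a log2 fold change of 0.18 (95% interval -0.11 to 0.46, edgeR adjusted p = 0.435). The promoter region that Apom has as a neighbour at D17H6S53E had -0.30 and that of Bag6 0.13, and all 4 regions overlapped between the ages.

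**Figure D5:**
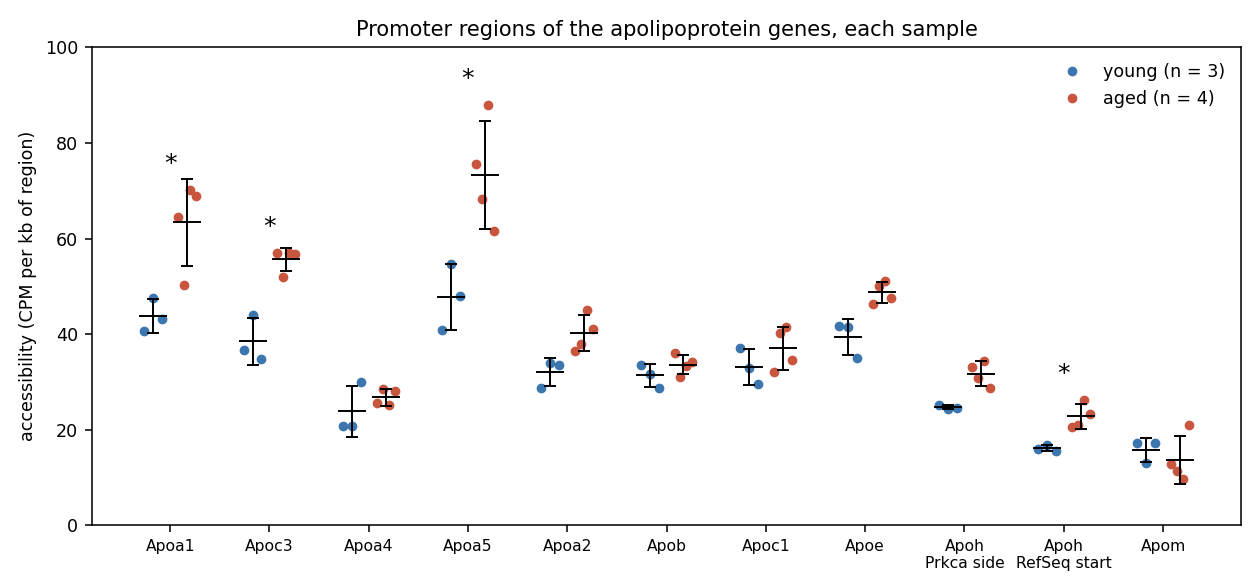
Accessibility (y axis, CPM per kb of region) of the promoter regions in each young (blue) and aged (red) sample, with the mean and SD in black and a star for an adjusted p under 0.05; Apob is shown at its first start and Apoh at both. The 4 starred promoters (Apoa1, Apoc3, Apoa5 and Apoh at its RefSeq start) have all aged samples above the young ones, while Apoa4, Apob, Apoc1 and Apom overlap.

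Ordered by level, the promoters chosen by the rule ran from Apoa5 (mean of 62.4 CPM per kb), Apoa1 (55.02), Apoc3 (48.3), Apoe (44.7), Apoa2 (36.7) and Apoc1 (35.4) to Apob (32.6), Apoh (28.7), Apoa4 (25.5) and Apom (14.6). Neighbours in this order overlapped in their sample values. These means pool both ages. In the young samples alone Apoe (39.4) was above Apoc3 (38.5) and Apoc1 (33.1) above Apoa2 (32.1). Apoa5 stood at percentile 96.7 of all promoter regions by CPM per kb and Apom at percentile 34.4. When the counts of all regions of a gene were summed, the mean log2 CPM went from 7.96 ± 0.11 in the young to 8.51 ± 0.21 in the aged group for Apoa1 and from 5.56 ± 0.18 in the young to 6.10 ± 0.06 in the aged group for Apoc3 (SD, n = 3 and n = 4). For Apoa5 the mean went from 8.43 ± 0.26 in the young to 8.87 ± 0.22 in the aged group, and for Apob from 8.61 ± 0.08 in the young to 8.47 ± 0.24 in the aged group. These sums carry no test. The difference was above 0 for 9 of the 10 genes, not for Apob, and for 6 of the 10 with total counts.

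The genes that act with apolipoproteins, and other apolipoproteins, were read at their promoters. The promoter regions of Apoc2 and Apoc4 are also among the 50 regions above. A promoter region was found for 49 of the 52 listed genes. Of these, 2 were more accessible in aged liver and 0 less accessible, a share near the 4.48% of all promoter regions (DESeq2 called 14 more and 0 less, limma voom 8 and 0, and at an unadjusted p under 0.05 in edgeR 25 were higher and 1 lower), and in 20 the aged samples all lay above the young ones and in 0 all below. Of all promoter regions, DESeq2 called 10% more and 2.22% less accessible, limma voom 7.87% and 2.90%, the unadjusted p passed for 23.0% higher and 9.13% lower, and 20.4% and 8.88% had every aged sample above or below. Their median log2 fold change was 0.25, with 44 above 0, beside a median of 0.09 and 61.1% above 0 for all promoter regions. By mean level, 34 of the 49 lay in the most accessible 10% of all regions, where 93.8% were above 0, and 10 in the next 10%, where 79.7% were. Foxa2, a pioneer factor of hepatocytes, measured 94.6, 102 and 86.98 CPM in young and 150.4, 112, 140.1 and 128 CPM in aged samples, without overlap, with a log2 fold change of 0.49 (95% interval 0.23 to 0.75, edgeR adjusted p = 0.0354). Pon1, the paraoxonase of high density lipoproteins, measured 19.1, 25.9 and 30.9 CPM in young and 39.4, 48.6, 38.1 and 30.8 CPM in aged samples. Aged replicate 4 was below young replicate 3, and the log2 fold change of 0.64 (95% interval 0.26 to 1.02, edgeR adjusted p = 0.04995) just passed. By list, 1 of 6 measured genes listed with other apolipoproteins was called, which was Pon1, a paraoxonase and not an apolipoprotein. Of the other lists, 0 of 8 genes of assembly and secretion and 0 of 9 lipases, transfer proteins and regulators were called. Among receptors and efflux genes 0 of 9 were called, and among transcription factors 1 of 17. Both called promoters were more accessible. The 17 transcription factors were all above 0, from 0.06 to 0.49, and 16 of them lay in the most accessible 10% of regions and 1 in the next 10%. Mttp, which loads lipid onto Apob, had 0.38 (95% interval 0.12 to 0.64, edgeR adjusted p = 0.0747) and Hnf4a, a nuclear receptor that activates many apolipoprotein genes, had 0.25 (95% interval 0.03 to 0.48, edgeR adjusted p = 0.145), both named for their roles after the values were seen. The 5 promoters below 0 were those of Sort1, Vldlr, Abcg1, Lpl and Apoc2. Sort1, a sorting receptor that binds Apob, measured 18.7, 15.6 and 10.9 CPM in young and 11.7, 8.24, 6.77 and 9.93 CPM in aged samples, with aged replicate 1 above young replicate 3, and its log2 fold change was -0.70 (95% interval -1.18 to -0.22, edgeR adjusted p = 0.0763). Vldlr had -0.68, Abcg1 -0.54, Lpl -0.48 and Apoc2 -0.06, and none of the 5 passed in edgeR. The count of promoters called more accessible too was 0 with offsets on mean abundance, and between 0 and 5 when a library was left out, at 0 without young replicate 1 or 2 or aged replicate 1 or 3, at 1 without young replicate 3, at 5 without aged replicate 2 and at 4 without aged replicate 4. Over all regions the offsets gave 247 called more accessible, and leaving out a library gave between 55 and 1630.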

How the data were processed

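The authors deposited raw counts per consensus region (GRCm38) for the 7 libraries, without normalization. Per the labels and methods, reads were trimmed with cutadapt 1.13 and aligned with Bowtie2 2.4.1, low-quality, duplicate and mitochondrial reads were removed, peaks were called per library with MACS2 2.2.7, and featureCounts gave the reads of each region that had peaks in 2 or more libraries. All columns were matched to samples by name, leaving 0 unused.

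Regions were annotated with GENCODE M21 (bedtools 2.31.1, Python 3.11.15, pandas 2.3.3); a promoter region overlapped a TSS ± 200 bp. All 55680 regions were fitted with edgeR 4.0.16 (TMM, quasi-likelihood test, 1 factor for age, Benjamini-Hochberg adjustment, threshold 0.05, no filter), checked on simulated counts. Log2 CPM used a prior count of 2. The 50 regions had medians of 111.5 to 693.5 counts per library, and intervals come from the fit. None of them aligned elsewhere in the genome with at least 80% of its length at 95% identity (minimap2 2.31). Libraries of the same age differed by more than sampling noise (chi-square per degree of freedom of 2.40 to 6.07).

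The members, gene lists and motifs were chosen with earlier results of these data known, and 1 gene each of the marker and pathway lists is not reported here. Named were each gene's promoter region (highest mean log2 CPM where several) and most accessible region, every region past the threshold, up to 5 largest changes each way among regions whose ages do not overlap, and pathway promoters past the threshold. Bud13, Zpr1 and other neighbours are named as genes whose promoters fall in the windows. Alternatives were DESeq2 1.42.0, limma 3.58.1 (voom), total counts, offsets on abundance or GC content (loess span 0.3), a minimum of 10 counts, a replicate block, the 6 pairs of aged samples summed, each library left out, a threshold of 0.01, narrower windows and a prior count of 0.5.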

Additional observations from a re-analysis of the deposited data

Results flagged for a closer look

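Among the 4 aged samples, 1 value was set apart from the other 3 by more than Dixon's 95% limit in 4 of the 32 values tested, each time in aged replicate 2, and chance alone sets apart about 1 group in 20. At the Apoc3 promoter region aged replicate 2 had a log2 CPM of 6.00 where the other aged samples had 6.13 and the young samples 5.43 to 5.77. The summed level of Apoc3 gave the same 6.00, since the gene has 1 region. The log2 ratio of the Apoa1 to Apoa5 cluster over the Apoc1 and Apoe regions was 0.35 in aged replicate 2, against 0.75 to 0.83 in the other aged and 0.01 to 0.50 in the young samples. The log2 ratio of reads in all promoter regions over reads in all other regions was 0.28 in aged replicate 2, against 0.42 to 0.43 in the other aged and 0.16 to 0.28 in the young samples. Young samples, 3 in number, were not examined in this way.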

How the results depend on the processing

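The count of 6 apolipoprotein regions more accessible in aged liver became 10 with offsets on GC content, 1 with aged replicates 1 and 3 summed, 0 with offsets on mean abundance and 0 at a threshold of 0.01, and it ranged from 0 to 7 when a library was left out. The 0 less accessible regions became 1 with limma voom, the 3′ region of Apoe. The median log2 fold change of the 50 regions (0.00) moved to -0.0732 with offsets on mean abundance, to -0.12 with windows of 2 kb and to -0.115 with total counts, which also shifted the median of all regions from -0.04 to -0.15. Of the 10 promoter regions, 3 passed. This became 5 with DESeq2, 6 with offsets on GC content, 0 with aged replicates 1 and 3 summed and 0 with offsets on mean abundance, and ranged from 0 to 4 without a library. For the pathway promoters, 2 became 14 with DESeq2, 16 with offsets on GC content, 8 with limma voom, 9 with aged replicates 2 and 4 summed, 1 with aged 1 and 2 or aged 2 and 3 summed, and 0 with aged 1 and 3 or aged 3 and 4 summed, with offsets on mean abundance, with total counts and with at least 10 counts in every sample. It ranged from 0 to 5 without a library, and the 0 less accessible ones became 2 with the replicate block, 1 with total counts and 0 to 1 without a library. The sign turned at the Apob promoter with offsets on mean abundance (-0.19) and total counts (-0.0177), and at the Apoc1 (-0.23) and Apoe (-0.0644) promoters with offsets on mean abundance. Calls over all regions moved as well, from 1360 more and 1838 less accessible to 543 and 2931 with total counts. Offsets on GC content gave 3495 and 2046, offsets on mean abundance 247 and 414, and a minimum of 10 counts 525 and 802. The calls more accessible were 269 with aged replicates 1 and 3 summed, 727 with 3 and 4, and 2164 with 2 and 4. They were 1039 with 1 and 2 summed and 699 with 2 and 3, and between 55 and 1630 without a library. The cause was not tested in any of these. The count of regions whose ages do not overlap stayed within 1.5 times under its alternatives. The difference in summed level of each gene moved by less than the larger of its young and aged SDs, except that those for Apoe (0.16) and Apoh (0.17) fell to 0.0434 and 0.0547 with total counts.

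Same-numbered young and aged samples did not deviate together (correlations of -0.119, 0.0565 and 0.0298). With so few samples this cannot exclude a pairing by number. With the replicate block 5 regions were more accessible, not the Apoa1 promoter, and aged replicate 4, alone in its block, then carries no weight. Over all regions the block gave 1485 more and 2593 less accessible.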
